A study of Sus scrofa with 32 samples.

Results

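The pregnancy effect on transcript levels was compared between the luminal epithelium (LE) and the blood vessels (BV) of the pig endometrium on Day 14. For each gene the log2 fold change from cyclic to pregnant gilts was estimated in LE and in BV, and the quantity tested was the LE effect minus the BV effect. A positive difference means that the pregnancy effect in LE lay above that in BV, and a negative one that it lay below. The comparison used the 16 LE and BV libraries among the 32 libraries of the series, 4 for each combination of status and compartment, and the 10413 genes that the authors' low-count filter had kept in both compartments, of 30185 genes counted. Counts of 31 libraries were used in all, since 1 pregnant glandular library, left out by the authors' processing per the labels, was not analysed here. LE and BV had been cut from the same 4 cyclic gilts and the same 4 pregnant gilts by laser capture microdissection. Gilts carry the number of their library labels, with C for cyclic (C128, C40, C42 and C78) and P for pregnant (P139, P39, P41 and P43), and values of a group are listed in that order.

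The gilts of both groups were prepuberal and synchronized with eCG and hCG. Pregnant gilts had been inseminated with semen, cyclic gilts with semen supernatant. In pregnant gilts the tissue came from hyperemic zones, where conceptuses lay, after the conceptuses had been removed, and the vessels collected were the larger ones. The libraries were made by low-input amplification and hold bulk RNA of the captured areas, so fewer cells of a type and less RNA per cell cannot be told apart.

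The luminal epithelium is the sheet of polarized cells that lines the uterine lumen. In the pig it stays intact through implantation, and the conceptus attaches to its apical surface. The vessels beneath it consist of endothelium and layers of smooth muscle, and they become more permeable and richer in blood flow at attachment sites. Conceptus estrogens and other secreted signals act on the epithelium and on the tissue beneath it at this stage.

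Library totals ran from 3143100 to 7081556 counts in LE and from 2415216 to 3826691 in BV, and ribosomal RNA genes took between 11.3% and 16.9% of the counts. Levels are given as CPM, counts scaled to 1000000 counts of the tested genes with TMM factors, where 1 read is worth between 0.139 and 0.430 CPM depending on the library. The compartment labels were compared with marker lists. The 17 epithelial markers (keratins, claudins, CDH1, EPCAM and others) summed to between 3415 and 4456 CPM in cyclic LE and between 3026 and 3392 in pregnant LE. In BV they summed to between 18.2 and 84.4 CPM in cyclic gilts and between 252 and 512 in pregnant gilts, and these ranges did not overlap. The median sum in BV was 1.73% of that in LE in cyclic gilts and 9.35% in pregnant gilts. The 17 smooth muscle markers summed to between 10404 and 29046 CPM in cyclic BV, between 3287 and 12007 in pregnant BV and between 1543 and 2232 in LE. The 22 endothelial markers summed to between 2527 and 4209 CPM in cyclic BV, between 3136 and 4841 in pregnant BV and between 446 and 1779 in LE. The 10 fibroblast markers, collagens among them, summed to between 27929 and 94859 CPM in cyclic BV, between 33037 and 81117 in pregnant BV and between 4596 and 18095 in LE, more than the markers of the label in 15 of the 16 libraries, the exception being smooth muscle in cyclic BV of gilt C78 (29046 CPM against 27929). Each compartment had the markers of its label at levels above those in the other compartment, together with those of fibroblasts, whose part in the results was not tested. No listed epithelial, smooth muscle, pericyte, endothelial or fibroblast marker was at 0 in every library of a group. The shift of epithelial markers into pregnant BV and the lower smooth muscle sum there move with many of the results below, and their part in those results was not tested.

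**Figure D1:**
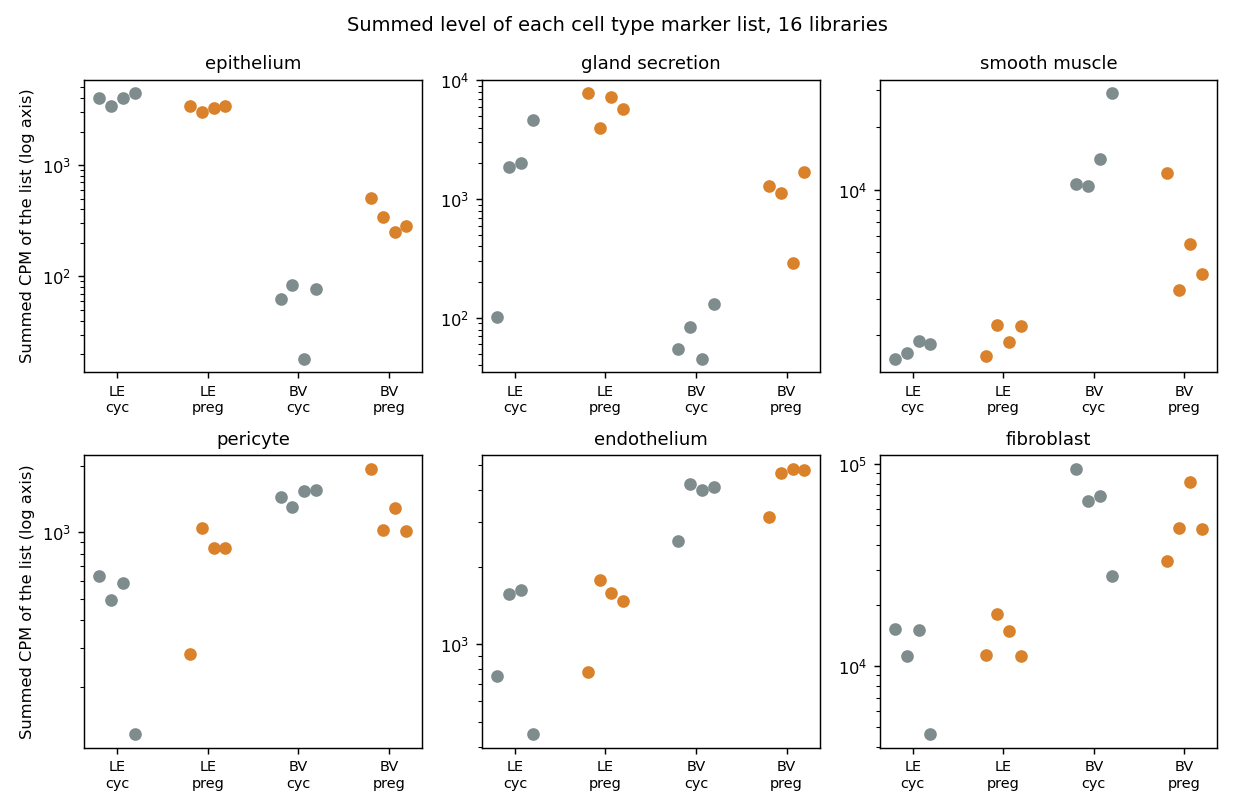
Summed CPM (log axis) of 6 marker lists in each of the 16 libraries, with cyclic libraries in grey and pregnant libraries in orange. The 4 pregnant BV libraries lie above the 4 cyclic BV libraries for epithelium, at between 252 and 512 CPM, and for gland secretion, at between 289.9 and 1701 CPM.

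The pregnancy effects of LE and BV differed at a false discovery rate (FDR) below 1% for 199 genes, 1.91% of those tested (edgeR's quasi-likelihood test with Benjamini-Hochberg adjustment over the 10413 genes). The LE effect lay above the BV effect for 92 genes (0.884%) and below it for 107 (1.03%). An unadjusted p below 0.05 was reached by 2251 genes (21.6%). In LE alone 447 genes were higher in pregnant gilts (4.29%) and 344 lower (3.3%), against 1.23% of the tested genes higher and 46 lower (0.442%) in BV. These counts depended on the test. DESeq2 called 304 genes above and 290 below, and edgeR's robust likelihood ratio test 349 and 384. With the gilt as a block, which pairs the libraries of an animal, 71 genes lay above and 81 below. Of these 152 genes, 118 were among the 199. When each compartment was fitted on its own, 186 genes were higher and 114 lower in LE, and 31 and 5 in BV. The median difference over all tested genes was -0.02 on the log2 scale, with a median effect of -0.02 in LE and 0.02 in BV. Among the 92 genes with the LE effect above, 77 rose in LE, 6 fell in BV and 9 passed neither single test. Among the 107 with the LE effect below, 67 fell in LE, 36 rose in BV, 4 did both and 8 passed neither. Levels did not overlap between cyclic and pregnant LE for 85 of the 92 and 78 of the 107, against 19.3% of all tested genes, but these libraries chose the genes. The size of each group also depended on single gilts. Without gilt C42, P39 or P43 the 92 became 31, 35 and 34 and the 107 became 45, 35 and 43, and without gilt C40 the 92 became 48.

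**Figure D2:**
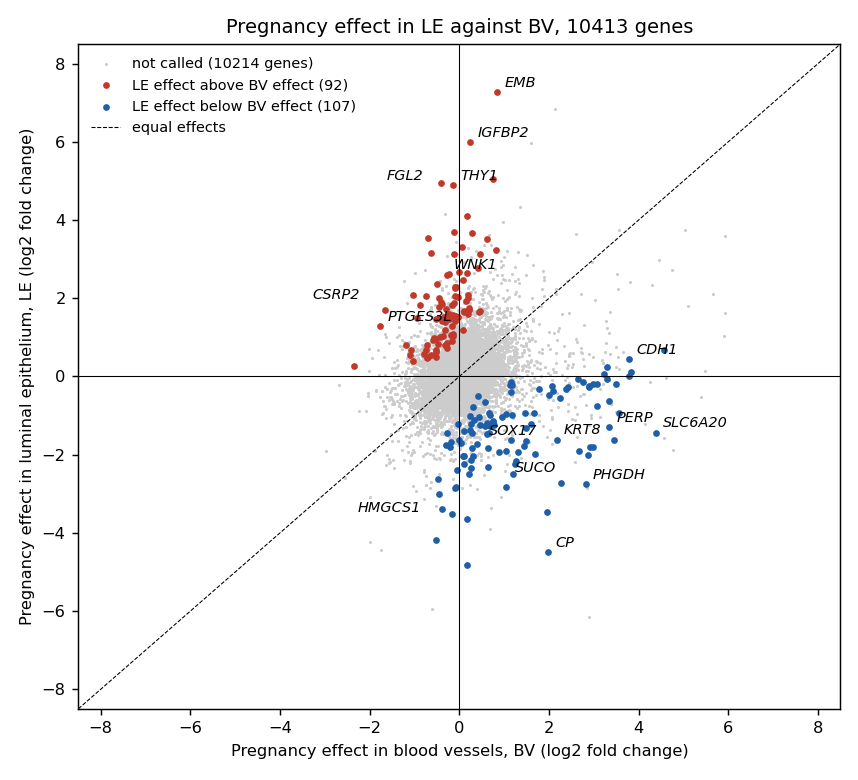
Pregnancy effect in LE (vertical axis) against that in BV (horizontal axis), both as log2 fold changes, for 10413 genes, with the 92 genes whose LE effect lay above the BV effect in red and the 107 below in blue. Red points extend mainly upwards, at BV effects near 0, and blue points spread downwards and to the right.

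Of the 199 genes, 157 (78.9%) had estimates of opposite sign in the 2 compartments, against 39.8% of all tested genes, and the difference itself chose them. Both single effects had an unadjusted p below 0.05 in 72 of these, 27 with LE higher and BV lower and 45 with LE lower and BV higher. At FDR below 1% in all 3 tests, 4 genes were lower in LE and higher in BV (0.0384% of tested genes) and 0 genes the reverse (0%). With DESeq2 these counts were 20 and 7, and with edgeR's robust likelihood ratio test 37 and 10, and with separate fits, where the difference is not tested, 1 gene was lower in LE and higher in BV. Without gilt C42, P39 or P43 the 4 became 0, without gilt C40, P139 or P41 they became 1, and without gilt C78 or P139 the 0 became 1.

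The 4 genes were PERP (chr1:26301254-26317046 in Sscrofa11.1), SALL1 (chr6:33731666-33748698), SUCO (chr9:114916957-115007979) and SOX17 (chr4:76854218-76857143). PERP encodes a membrane protein of desmosomal junctions. It read 123, 149, 210 and 130 CPM in cyclic LE and 70.8, 63.8, 60.9 and 52.5 in pregnant LE, while BV read 0.670, 2.98, 0.568 and 0.859 in cyclic and 18.5, 12.4, 9.81 and 13.8 in pregnant gilts. In both compartments the 2 groups were separate, in opposite directions. The log2 effects of PERP were -1.30 ± 0.26 (SE, adjusted p = 0.00303) in LE and 3.35 ± 0.39 (adjusted p = 0.00086) in BV, a difference of -4.65 ± 0.47 (adjusted p = 4.6e-05).

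SUCO encodes a SUN domain protein of the endoplasmic reticulum. It fell in LE from 1042, 1049, 1110 and 813 CPM to 304, 306, 241 and 226, and it rose in BV from 160, 172, 103 and 113 CPM to 349, 314, 252 and 210. LE lay above BV in every cyclic gilt, whereas pregnant LE and BV overlapped, with means of 269 and 281 CPM. The log2 effects of SUCO were -1.90 ± 0.21 in LE (adjusted p = 3.2e-05) and 1.03 ± 0.20 in BV (adjusted p = 0.00839). The difference of -2.93 ± 0.29 had an adjusted p of 4.2e-05.

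SALL1 and SOX17 encode transcription factors, and SOX17 is known from both endothelium and uterine epithelium. SALL1 read between 129 and 149 CPM in cyclic LE and between 41.7 and 75.8 in pregnant LE, against between 7.30 and 17.4 in cyclic BV and between 20.6 and 35.2 in pregnant BV. SOX17 read between 209 and 396 CPM in cyclic LE and between 129 and 159 in pregnant LE, against between 14.6 and 24.1 in cyclic BV and between 43.9 and 70.0 in pregnant BV. Neither gene had overlapping groups in either compartment. Their differences were -2.83 ± 0.36 (adjusted p = 0.000427) for SALL1 and -2.40 ± 0.31 (adjusted p = 0.000438) for SOX17. All 4 genes had more transcript in LE than in BV in cyclic gilts, and the epithelial marker sum was higher in the same pregnant BV libraries. The difference of each kept its call in all 8 fits that left out 1 gilt.

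**Figure D3:**
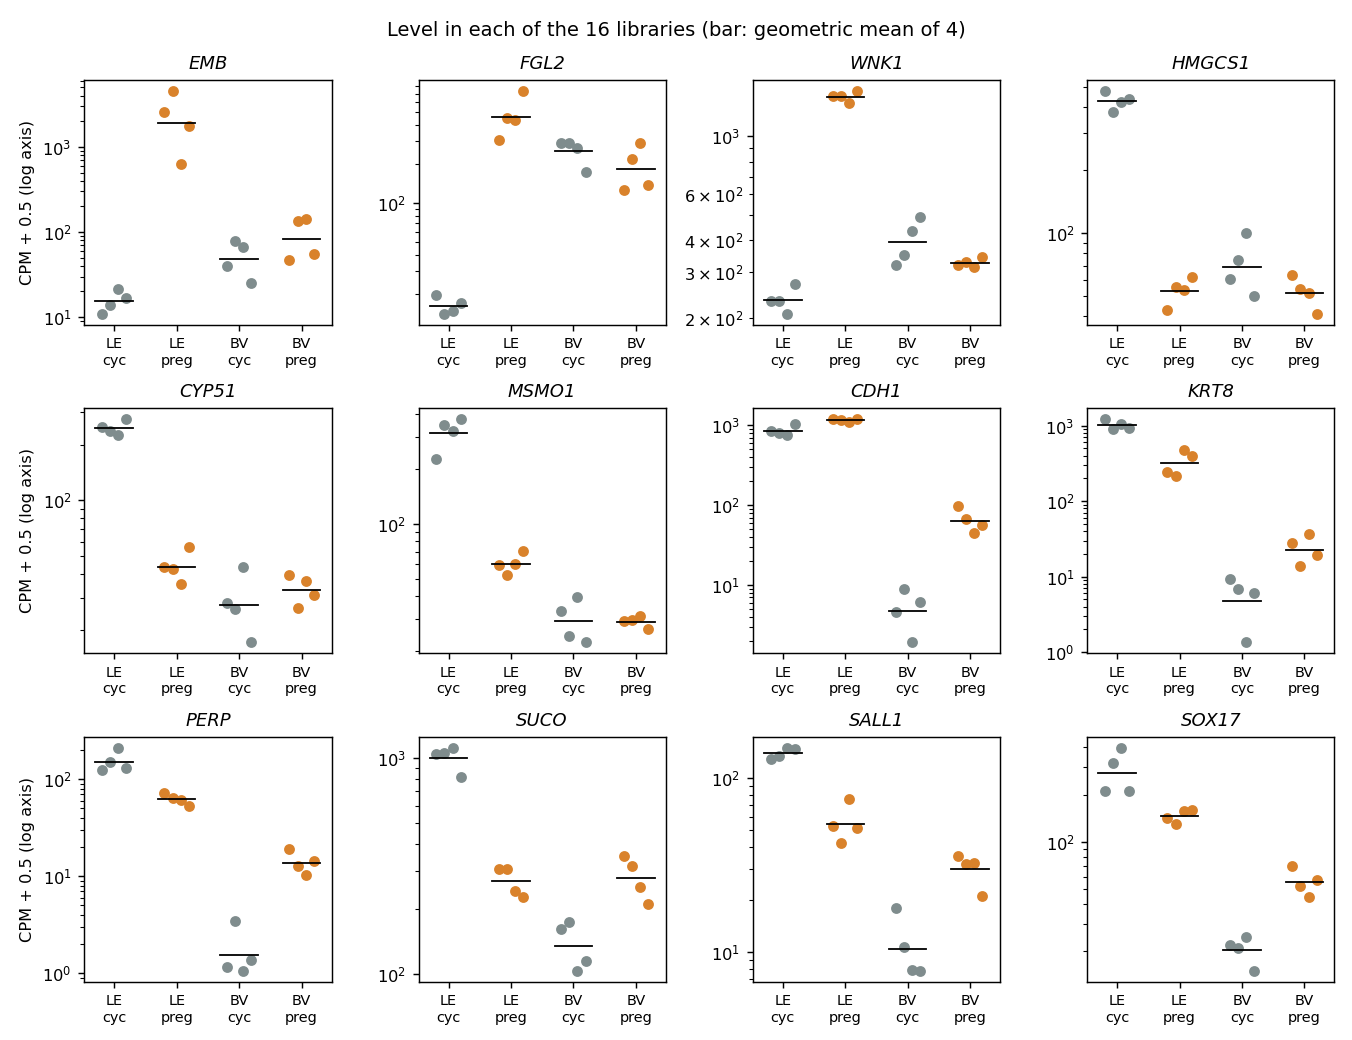
CPM + 0.5 (log axis) of 12 genes in the 16 libraries, with cyclic libraries in grey, pregnant libraries in orange and a bar at the geometric mean of each 4. SUCO falls to between 226 and 306 CPM in pregnant LE and rises to between 210 and 349 in pregnant BV, while EMB, FGL2 and WNK1 rise in LE and HMGCS1, CYP51 and MSMO1 fall there.

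The reverse pattern, LE higher and BV lower, was described from genes whose difference was called and whose single effects both had an unadjusted p below 0.05. CSRP2, a LIM domain protein of smooth muscle, rose in LE from 87.2, 55.6, 41.4 and 32.5 CPM to 143, 196, 136 and 233. In BV it read 48.9, 53.7, 67.3 and 100.5 CPM in cyclic and 36.1, 8.90, 24.3 and 16.5 in pregnant gilts. The 4 pregnant libraries lay above all cyclic ones in LE and below all cyclic ones in BV. The BV effect of -1.66 ± 0.39 missed the 1% threshold (adjusted p = 0.0184), and the difference was 3.36 ± 0.54 (adjusted p = 0.00194). CSRP2 lost its call with the gilt as a block (adjusted p = 0.0158) and without gilt C42 or P43 (highest adjusted p 0.0142, range of the difference 2.93 to 3.84).

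PTGES3L was the 1 gene of the 6 named for this pattern whose BV effect passed. It fell in BV from 41.2, 37.0, 36.6 and 77.7 CPM to 22.3, 9.67, 15.7 and 8.98, by 1.76 ± 0.35 on the log2 scale (adjusted p = 0.00843). In LE it read between 7.28 and 16.8 CPM in cyclic and between 19.4 and 32.1 in pregnant gilts, and its LE effect of 1.29 ± 0.35 missed the threshold (adjusted p = 0.0174). The groups of PTGES3L were separate in both compartments, and the difference was 3.05 ± 0.49 (adjusted p = 0.00205), not called without gilt P39 or P43 (highest adjusted p 0.0129, range 2.59 to 3.46). FAM149A and SLC25A12, a mitochondrial aspartate-glutamate carrier, rose in LE by 2.05 ± 0.24 and 1.84 ± 0.30 (adjusted p = 6.1e-05 and 0.00076). Their BV effects were -0.74 ± 0.23 and -0.87 ± 0.31 (adjusted p = 0.0581 and 0.0858), and their differences of 2.79 ± 0.33 and 2.71 ± 0.43 were called in each of the 8 fits without 1 gilt. SAMD12 and CDC42EP3, an effector of the GTPase CDC42, had differences of 3.10 ± 0.61 and 2.42 ± 0.50 (adjusted p = 0.00733 and 0.00974). Both lost the call with the gilt as a block (adjusted p = 0.0102 and 0.0499). SAMD12 lost it in 6 of the 8 fits without 1 gilt (all but C128 and P41, highest adjusted p 0.0381, range 2.79 to 3.74), and CDC42EP3 in 7 (all but C128, highest adjusted p 0.0542, range 1.91 to 2.88). Smooth muscle markers moved the same way in BV without passing the test. Of 10 tested, 9 had a positive difference, with a median of 1.13 against -0.02 over all genes, a median BV effect of -1.20, and 0 calls (5 at an unadjusted p below 0.05). The other 7 of the 17 listed were in the filtered table of BV but not of LE, and with no filter 0 of 17 were called. MYLK, the myosin light chain kinase, read 940, 992, 1088 and 2049 CPM in cyclic BV and 811, 362, 648 and 299 in pregnant BV, and its difference was 2.03 ± 0.60 (adjusted p = 0.0547).

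Genes that rose in LE with little movement in BV made up most of those with the LE effect above. EMB encodes embigin, a membrane glycoprotein that accompanies monocarboxylate transporters. It read 10.5, 13.5, 21.0 and 16.3 CPM in cyclic LE and 2548, 4551, 637 and 1748 in pregnant LE, so that the lowest pregnant library lay far above the highest cyclic one. BV read between 24.5 and 77.5 CPM in cyclic and between 46.0 and 141 in pregnant gilts, with overlap. The log2 effects of EMB were 7.27 ± 0.67 in LE (adjusted p = 8.3e-06) and 0.85 ± 0.52 in BV (adjusted p = 0.325). The difference was 6.43 ± 0.79 (95% interval 4.75 to 8.10, adjusted p = 0.000302). EMB was thus lower in LE than in BV in cyclic gilts and higher in pregnant ones.

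FGL2, a fibrinogen-like protein with procoagulant and immune functions, showed the same change of order. LE read 18.9, 13.5, 14.2 and 16.5 CPM in cyclic and 303, 456, 437 and 733 in pregnant gilts, while BV read 291, 291, 267 and 174 in cyclic and 125, 217, 291 and 136 in pregnant gilts. The LE groups were far apart and the BV groups overlapped. The difference for FGL2 was 5.35 ± 0.44 (adjusted p = 4.8e-06).

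WNK1 encodes a kinase that sets the activity of cation-chloride cotransporters. It had the smallest adjusted p of the 199 genes (3.1e-06). LE read 231, 233, 207 and 269 CPM in cyclic and 1425, 1431, 1340.3 and 1497 in pregnant gilts, and BV read 318, 349, 432 and 489 in cyclic and 319, 328, 315 and 344 in pregnant gilts. WNK1 rose by 2.60 ± 0.15 in LE, against -0.28 ± 0.14 in BV, a difference of 2.88 ± 0.21.

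IGFBP2, which binds insulin-like growth factors, read 0, 0.644, 0.283 and 1.70 CPM in cyclic LE and 81.3, 65.4, 8.91 and 26.9 in pregnant LE, against between 4.71 and 17.6 CPM over all 8 BV libraries. Its difference was 5.76 ± 1.07 (adjusted p = 0.00518), called in 2 of the 8 fits without 1 gilt (without P139 or P41) and with a highest adjusted p of 0.0256 (range 5.54 to 6.25). The 15 leukocyte markers summed to between 102 and 181 CPM in cyclic LE and between 187 and 286 in pregnant LE, without overlap, and their part in the LE rises was not tested.

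THY1, a surface glycoprotein of fibroblasts and other cells, read between 6.56 and 13.9 CPM in cyclic LE and 321, 629.9, 60.9 and 155 in pregnant LE, with a difference of 5.03 ± 0.76 (adjusted p = 0.00133). It was the 1 call among 10 fibroblast markers, whose median difference was 0.48. The summed fibroblast markers ranged from 4596 to 15298 CPM in cyclic LE and from 11234 to 18095 in pregnant LE, with overlap. ENDOD1 (difference 4.24 ± 0.46) and UBASH3B, a phosphatase of tyrosine kinase signalling (3.93 ± 0.55), were also called in all 8 fits without 1 gilt. GALNT15, an enzyme that starts O-linked glycosylation, had a difference of 4.30 ± 0.73 (adjusted p = 0.00302). It lost the call with the gilt as a block (adjusted p = 0.0173) and without gilt C42, P39 or P43 (highest adjusted p 0.0182, range 3.43 to 4.91).

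Integrins are receptors for extracellular matrix, and those with an alpha v chain bind ligands such as osteopontin and take part in conceptus attachment. Of 23 tested genes of integrins and their ligands, 3 had the LE effect above the BV effect and 0 below, against 0.884% and 1.03% of all tested genes. Their median difference was 0.66. All 3 were chains of alpha v integrins. ITGB1 and ITGB8, which the paper also names as partners of the alpha v chain, were tested and not called, nor was SPP1, the gene of osteopontin. With no filter 2 of all 28 listed were called above and 0 below. ITGAV read 346, 160, 142 and 137 CPM in cyclic LE and 938, 760, 587 and 675 in pregnant LE, and it rose by 1.91 ± 0.29 (adjusted p = 0.00045). In BV it read between 312 and 369 CPM in cyclic and 385, 241, 228 and 197 in pregnant gilts, with an effect of -0.41 ± 0.28 (adjusted p = 0.379). The difference for ITGAV was 2.33 ± 0.40 (adjusted p = 0.00313), lost without gilt C40, C42, C78, P39 or P43 (highest adjusted p 0.0196, range 2.18 to 2.72).

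ITGB3 read 0.262, 2.15, 7.65 and 5.34 CPM in cyclic LE and 82.9, 39.5, 23.3 and 54.4 in pregnant LE, with no overlap, against between 9.72 and 24.4 CPM over the 8 BV libraries. ITGB5 read between 27.4 and 41.6 CPM in cyclic LE and between 86.2 and 127 in pregnant LE, and in BV between 77.0 and 94.5 in cyclic and between 98.4 and 136 in pregnant gilts. ITGB5 rose by 1.66 ± 0.17 in LE (adjusted p = 1.9e-05), and its BV effect was 0.43 ± 0.17 (adjusted p = 0.118), although the 4 pregnant BV libraries lay above the 4 cyclic ones. The differences were 3.81 ± 0.75 for ITGB3 and 1.22 ± 0.24 for ITGB5 (adjusted p = 0.0071 and 0.0065). Each lost the call with the gilt as a block (adjusted p = 0.0131 and 0.0132) and in 7 of the 8 fits without 1 gilt (all but C128 for ITGB3, range 3.49 to 4.35, and all but P41 for ITGB5, range 1.07 to 1.33, with highest adjusted p of 0.0343 and 0.0305). ITGB5 was also lost with all 31 libraries (adjusted p = 0.0104).

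Other receptors and regulators had the LE effect above, as 0.884% of all tested genes did. EDNRA, a receptor for the vasoconstrictor endothelin, was the 1 call among 30 tested genes of vascular signalling (median difference 0.36). It read between 9.96 and 15.7 CPM in cyclic LE and between 58.8 and 69.9 in pregnant LE, and between 113 and 232 in cyclic BV and between 82.7 and 182 in pregnant BV. Only the LE groups were separate, and the difference was 2.84 ± 0.36 (adjusted p = 0.000427). DHRS3, a retinaldehyde reductase, was the 1 call among 12 tested genes of retinoid handling, at 2.39 ± 0.46 (adjusted p = 0.0065), and was lost without gilt C128, C40, C42, P39 or P43 (highest adjusted p 0.0374, range 2.19 to 2.58). IGFBP2 was the 1 call among 17 genes of EGF, FGF and IGF signalling. Among 19 genes of ER chaperones and the unfolded protein response, 17 had a positive difference, with a median of 0.51, and XBP1 and DNAJC3 were called. XBP1, a transcription factor of that response, rose from between 119 and 140 CPM to between 203 and 291 in LE, and its BV libraries were at between 234 and 245 CPM in cyclic and between 145 and 224 in pregnant gilts. The differences were 1.13 ± 0.22 for XBP1 and 0.99 ± 0.19 for DNAJC3 (both adjusted p = 0.0065). Each was called in 1 of the 8 fits without 1 gilt (without P139 for XBP1, range 1.05 to 1.24, and without P43 for DNAJC3, range 0.87 to 1.17, with highest adjusted p of 0.0273 and 0.0328). With the gilt as a block DNAJC3 was lost (adjusted p = 0.0304), and with no filter 0 genes of the list were called.

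Cholesterol synthesis turns acetyl units into sterols for membranes and steroid hormones, and its genes are driven together by SREBP2 when sterols are scarce. Of 16 tested genes of this pathway, 4 had the LE effect below the BV effect and 0 above, against 1.03% and 0.884% of all tested genes. All 16 differences were negative, with a median of -1.84 against -0.02 over all genes. Of the 25 listed genes, 7 others were in the filtered table of LE but not in that of BV. With no filter 24 of the 25 were fitted, all 24 differences were negative with a median of -1.48, and 4 were called below. In LE 10 of the 16 fell (3.3% of all tested genes did) and 0 rose, and in BV 0 passed in either direction. The median effect was -1.81 in LE and -0.14 in BV. HMGCS1, which makes the precursor of the pathway's controlling step, read 477, 377, 421 and 435 CPM in cyclic LE and 42.5, 55.0, 52.8 and 61.4 in pregnant LE. In BV it read 59.6, 73.9, 99.9 and 49.8 CPM in cyclic and 62.3, 53.8, 51.0 and 40.8 in pregnant gilts. The pregnant LE libraries thus lay in the range of the BV libraries. HMGCS1 fell by 3.01 ± 0.21 in LE (adjusted p = 3.4e-07), its BV effect was -0.45 ± 0.20 (adjusted p = 0.168), and the difference was -2.56 ± 0.28 (adjusted p = 0.000113).

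CYP51 and MSMO1 encode enzymes that remove methyl groups from lanosterol and its products. CYP51 read between 225 and 273 CPM in cyclic LE and between 35.0 and 55.7 in pregnant LE, with 27.5, 25.6, 43.2 and 16.7 in cyclic BV and 39.1, 25.9, 36.1 and 30.3 in pregnant BV. MSMO1 read between 226 and 372 CPM in cyclic LE and between 51.8 and 70.1 in pregnant LE, with between 21.9 and 39.2 in cyclic BV and between 25.8 and 30.6 in pregnant BV. The LE groups were separate and the BV groups overlapped for both. Their differences were -2.69 ± 0.32 (adjusted p = 0.000277) and -2.36 ± 0.27 (adjusted p = 0.000192). HSD17B7, a ketosteroid reductase of the pathway, read 40.1, 130, 149 and 249 CPM in cyclic LE and 27.8, 19.6, 62.3 and 33.6 in pregnant LE, with overlap. In BV it read between 3.68 and 6.26 CPM in cyclic and between 11.6 and 21.3 in pregnant gilts. The difference for HSD17B7 was -3.65 ± 0.67 (adjusted p = 0.00452), called in 2 of the 8 fits without 1 gilt (without C128 or P41, highest adjusted p 0.0243, range -4.15 to -3.23). HMGCS1, CYP51 and MSMO1 were called in all 8.

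The 250 bases before the annotated gene start were read from Sscrofa11.1 (RefSeq) for the tested genes. Both strands were searched for the sterol element of SREBP (TCACNCCAC) and for CCAAT, the motif of NF-Y. The sterol element was present in 3 of the 16 cholesterol genes (18.8%) and in 84 of the 10411 tested genes with sequence (0.807%), and CCAAT in 12 of 16 (75.0%) and in 32.6% of all. The list was chosen as a pathway driven by SREBP2, so its higher shares say nothing about the pregnancy effect. Among the 107 genes with the LE effect below, the shares were near those of all genes, at 0.935% for the sterol element and 33.6% for CCAAT. HMGCS1 and HSD17B7 are shown, 5′ to 3′ on the strand of the gene, with matches to either motif in capitals.
HMGCS1, chr16:27957262-27957511, minus strand: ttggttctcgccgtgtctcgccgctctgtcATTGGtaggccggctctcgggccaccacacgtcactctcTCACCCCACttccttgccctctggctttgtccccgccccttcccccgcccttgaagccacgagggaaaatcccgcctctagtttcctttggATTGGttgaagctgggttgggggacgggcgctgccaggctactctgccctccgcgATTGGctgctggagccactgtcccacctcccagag
HSD17B7, chr4:87743038-87743287, minus strand: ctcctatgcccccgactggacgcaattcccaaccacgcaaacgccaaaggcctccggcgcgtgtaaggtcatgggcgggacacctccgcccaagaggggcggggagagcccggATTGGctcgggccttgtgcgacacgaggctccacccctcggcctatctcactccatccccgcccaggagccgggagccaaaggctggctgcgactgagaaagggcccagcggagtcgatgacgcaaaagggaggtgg
HMGCS1 held 1 sterol element, ending 173 bases before the start, and 3 CCAAT motifs, ending 216, 86 and 31 bases before it. HSD17B7 held 1 CCAAT motif, ending 133 bases before the start. The letters of neither motif occurred in the windows of CYP51 and MSMO1. The motifs do not overlap each other, and a match is a description of the letters only.

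Epithelial junction genes gave the other large group with the LE effect below, through higher levels in pregnant BV. Of 19 tested genes of cell junctions, 6 had the LE effect below the BV effect and 0 above, against 1.03% and 0.884% of all tested genes. Their median difference was -0.87. With no filter 7 of all 29 listed were called below and 1 above. In BV 7 of the 19 rose (1.23% of all tested genes did) and 0 fell, and in LE 0 rose and 1 fell (PERP). CDH1, CLDN3, CLDN4 and CLDN7 are also on the list of epithelial markers, so the counts of these lists share genes. Of the 10 epithelial markers tested, 5 were called below and 0 above, all 10 differences were negative with an unadjusted p below 0.05, and 6 rose in BV, while KRT8 and KRT19 fell in LE. The other 7 of the 17 listed markers were in the filtered table of LE but not in that of BV, with means between 0.43 and 6.98 CPM in pregnant BV, and each of the 10 tested had a higher mean there (up to 69.4). The 10 were thus those highest in pregnant BV, and their counts do not stand for the list. In the fit with no filter, all 17 differences were negative and 7 were called below, 2 of them among the 7 markers outside the filter, and 9 of the 17 rose in BV. The BV effects of those 7 lay between 0.85 and 2.97. CDH1, the adhesion protein of adherens junctions, read 839, 814, 755 and 1038 CPM in cyclic LE and 1192, 1179, 1106 and 1190 in pregnant LE. In BV it read 4.02, 8.35, 1.42 and 5.58 CPM in cyclic and 98.4, 67.3, 44.7 and 55.4 in pregnant gilts. All pregnant BV libraries lay above the cyclic ones and far below LE. The CDH1 effect was 3.78 ± 0.36 in BV (adjusted p = 0.000164) and 0.44 ± 0.29 in LE (adjusted p = 0.326), a difference of -3.34 ± 0.46 (adjusted p = 0.000696). With all 31 libraries in 1 fit the CDH1 difference was -3.36 ± 0.94 and missed the threshold (adjusted p = 0.0294).

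DSP and DSG2, both of desmosomes, and CLDN7, of tight junctions, moved in the same way. DSP rose in BV from between 7.38 and 16.7 CPM to between 37.0 and 108, and its difference was -2.80 ± 0.42 (adjusted p = 0.00132). DSG2 and CLDN7 had differences of -3.83 ± 0.67 and -2.89 ± 0.53 (adjusted p = 0.0034 and 0.00452). Both lost the call with the gilt as a block (adjusted p = 0.0126 and 0.0219). DSG2 was lost without gilt C42, C78, P139, P39 or P43 (highest adjusted p 0.0225, range -5.16 to -3.47), and CLDN7 without gilt C40, C42, C78, P39, P41 or P43 (highest adjusted p 0.0243, range -3.84 to -2.39). GRHL2, a transcription factor of epithelial identity, rose in BV by 3.30 ± 0.47 (adjusted p = 0.00277), with a difference of -3.37 ± 0.56 that was lost without gilt P43 (adjusted p = 0.0154). KRT8, a keratin, fell in LE. It read 1215, 892, 1067 and 922 CPM in cyclic LE and 243, 218, 473 and 401 in pregnant LE, and 8.71, 6.26, 0.852 and 5.58 in cyclic BV and 27.5, 13.2, 36.5 and 18.7 in pregnant BV. The KRT8 groups were separate in both compartments, its BV effect of 2.17 ± 0.46 missed the threshold (adjusted p = 0.0115), and the difference was -3.79 ± 0.60 (adjusted p = 0.00187). With all 31 libraries in 1 fit, DSP, DSG2, CLDN7 and KRT8 lost the call (adjusted p = 0.047, 0.0117, 0.0511 and 0.0197).

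The bases before the start of these genes were searched for the E-box CAGGTG, which repressors of epithelial genes bind, on both strands. It was present in 8 of the 10 tested epithelial markers (80.0%), in 7 of the 19 junction genes (36.8%) and in 17.3% of all tested genes. Of the 107 genes with the LE effect below, 29 held it (27.1%). The 10 markers were those highest in pregnant BV, and the other 7 of the 17 listed were not searched. CDH1, CLDN3, CLDN4 and CLDN7 are on both lists. These shares describe the chosen lists and were not a test of a repressor. CDH1 and KRT8 are shown with matches to CAGGTG or CCAAT in capitals, where CACCTG and ATTGG are the reverse complements.
CDH1, chr6:18155987-18156236, minus strand: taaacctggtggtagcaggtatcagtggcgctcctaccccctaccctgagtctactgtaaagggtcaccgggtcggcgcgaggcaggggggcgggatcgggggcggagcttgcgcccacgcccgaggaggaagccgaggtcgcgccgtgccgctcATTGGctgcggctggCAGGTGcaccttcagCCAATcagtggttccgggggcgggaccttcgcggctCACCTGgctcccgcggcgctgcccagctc
KRT8, chr5:18180278-18180527, minus strand: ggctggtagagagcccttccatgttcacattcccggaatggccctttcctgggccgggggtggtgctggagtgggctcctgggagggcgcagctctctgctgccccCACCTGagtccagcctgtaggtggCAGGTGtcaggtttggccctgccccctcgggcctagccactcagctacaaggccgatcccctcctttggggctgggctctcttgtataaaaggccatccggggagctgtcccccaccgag
The CDH1 window held 2 E-boxes, ending 75 and 24 bases before the start, and 2 CCAAT motifs, ending 91 and 61 bases before it. The KRT8 window held 2 E-boxes, the nearer ending 115 bases before the start. Binding of factors to these motifs was not measured, and the transcripts of such factors were not examined here.

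**Figure D4:**
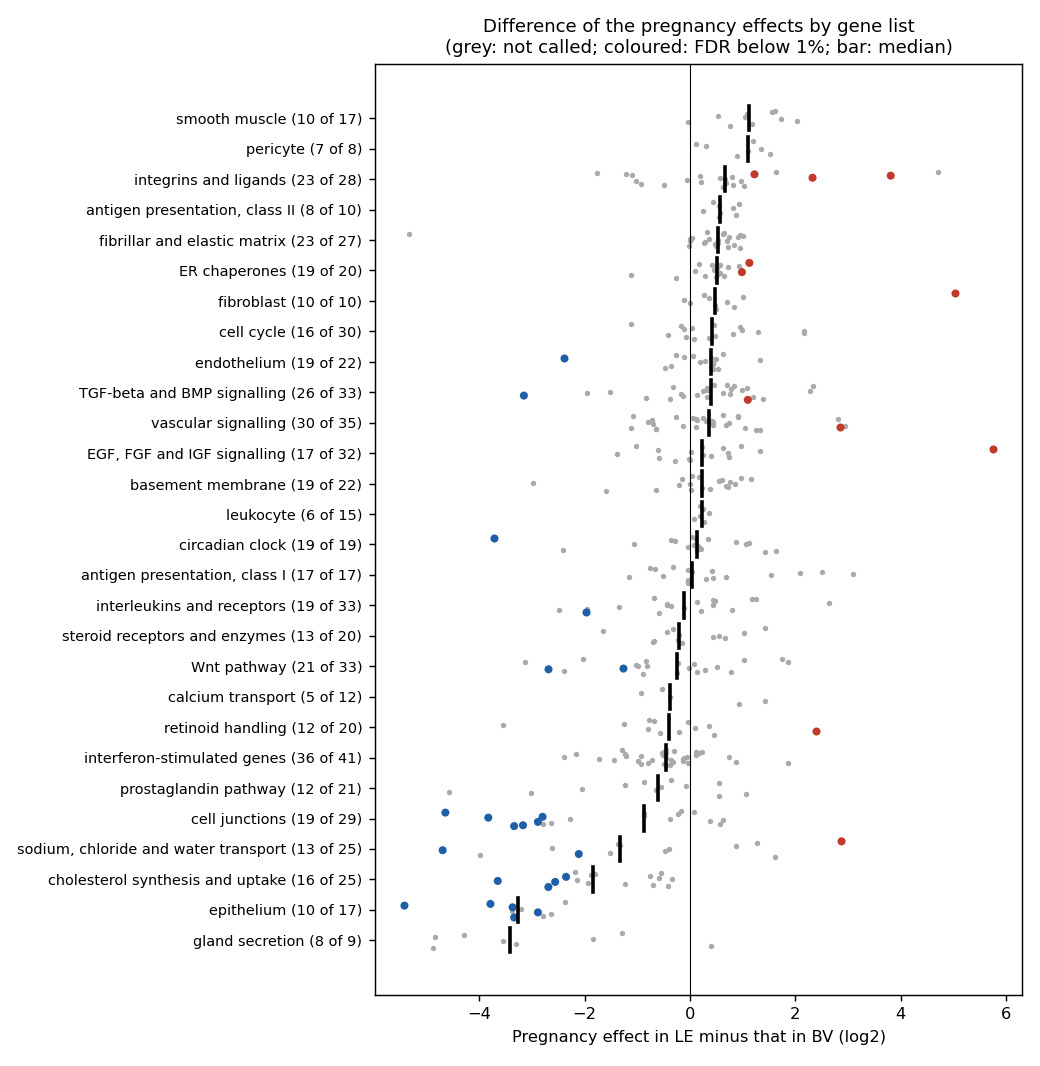
Pregnancy effect in LE minus that in BV (log2) for the tested genes of each list with at least 5 tested members, with genes called at FDR below 1% in red or blue and a bar at the list's median. Epithelium, gland secretion and cholesterol synthesis lie furthest to the left, at medians of -3.27, -3.43 and -1.84, and smooth muscle and pericyte furthest to the right, at 1.13 and 1.10, over members that passed the filter (with no filter -3.15, -3.24, -1.48, 1.48 and 1.02 over the members with counts).

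How far the results depended on genes typical of epithelium was examined by leaving such genes out. Of the tested genes, 727 (6.98%) were at least 4-fold higher in cyclic LE or glandular epithelium than in cyclic BV, and they held 76 of the 107 genes with the LE effect below and 2 of the 92 above. These genes were defined by cyclic libraries that also enter the contrast. In BV 87 of them rose in pregnant gilts and 0 fell. When they were left out of the fit, the LE effect lay below for 25 genes in place of 107 and above for 66 in place of 92. Of the 121 called genes that stayed in, 91 kept the call once scaling, fit and adjustment were redone. The drops thus hold losses among genes that were not left out. In BV 23 genes were then higher and 23 lower, in place of 1.23% and 0.442% of the tested genes, and the 4 opposite genes were among those left out. Of the tested genes, 855 (8.21%) were at least 4-fold higher in cyclic BV or stroma than in cyclic LE, and they held 22 of the 92 and 0 of the 107. Without them, an alternative added after seeing the data, the counts were 92 above and 108 below.

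Gland secretion genes showed the largest BV effects among the lists with no call. Of 8 tested, 0 were called, 4 had an unadjusted p below 0.05, the median difference was -3.43 and the median BV effect 5.07. ACP5, which encodes the iron-carrying uteroferrin of the glands, read 5.78 ± 3.69 CPM in cyclic BV (SD, n = 4) and 379, 389.5, 33.3 and 610.4 in pregnant BV, and 28.3, 171, 211 and 408 in cyclic LE and 797, 203, 384 and 276 in pregnant LE. It rose in BV by 5.90 ± 0.94 (adjusted p = 0.0032), and its difference of -4.88 ± 1.14 missed the threshold (adjusted p = 0.0192). In the glandular epithelium the mean level of ACP5 was 1491 CPM in cyclic and 5707 in pregnant gilts, on a common scaling of all 31 libraries.

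Ion transporters went in both directions. Calls among the 13 tested genes of sodium, chloride and water transport included WNK1, with the LE effect above, and CFTR, with it below. CFTR, a chloride channel of epithelial cells, read between 27.8 and 73.6 CPM in cyclic LE and between 8.08 and 19.0 in pregnant LE, with 2.01, 3.28, 0 and 0 in cyclic BV and between 7.35 and 15.9 in pregnant BV. Its difference was -4.70 ± 0.81 (adjusted p = 0.00313), lost without gilt P41 or P43 (highest adjusted p 0.0154, range -5.76 to -4.40).

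The 8 named genes with the most negative differences were CP, SLC6A20, PHGDH, KRT19, SLC24A4, STEAP4, RGS4 and ARHGEF38. PHGDH, the first enzyme of serine synthesis, fell in LE from 1360, 300, 396 and 465 CPM to 94.1, 30.7, 96.7 and 152. In BV it read 14.1, 9.24, 5.39 and 3.44 CPM in cyclic and 101, 51.1, 49.4 and 29.2 in pregnant gilts. The groups were separate in both compartments, the BV effect of 2.82 ± 0.61 missed the threshold (adjusted p = 0.013), and the difference was -5.57 ± 0.83 (adjusted p = 0.00123). It was called in all 8 fits without 1 gilt but not with all 31 libraries in 1 fit (adjusted p = 0.0103). CP, the copper-carrying ferroxidase ceruloplasmin, read 92.2, 367, 194 and 62.2 CPM in cyclic LE and 17.1, 0.632, 9.05 and 3.84 in pregnant LE. Its BV levels overlapped, at between 0.335 and 7.73 CPM in cyclic and between 3.92 and 28.8 in pregnant gilts. The difference for CP was -6.49 ± 1.16 (adjusted p = 0.00388), lost without gilt C40, C42, P39 or P43 (highest adjusted p 0.0226, range -7.24 to -6.01).

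SLC6A20, a proline carrier, rose in BV from 1.67, 8.94, 1.99 and 9.02 CPM to 258, 68.5, 18.8 and 99.1, with a difference of -5.83 ± 1.0 (adjusted p = 0.00313) that was lost without gilt C42, P39 or P43 (highest adjusted p 0.0158, range -6.40 to -5.07). SLC24A4, a sodium and calcium exchanger, rose in BV by 3.44 ± 0.68 (adjusted p = 0.00866), with a difference of -5.07 ± 0.91, lost without gilt C128, C42, C78, P41 or P43 (highest adjusted p 0.02, range -6.10 to -4.68). RGS4, an inhibitor of G protein signalling, had overlapping groups in BV (adjusted p = 0.881 for the BV effect). It fell in LE from 18.3, 141, 153 and 70.4 CPM to 0.535, 3.48, 4.46 and 4.80, and all BV libraries lay between 14.6 and 52.0 CPM. Its difference was -4.98 ± 0.87 (adjusted p = 0.00332), lost without gilt C40, C42, P39, P41 or P43 (highest adjusted p 0.021, range -5.57 to -4.48). KRT19, a keratin, and STEAP4, a metalloreductase, fell in LE by 3.47 ± 0.69 and 2.72 ± 0.54 (adjusted p = 0.00321 and 0.00299), and ARHGEF38 had an LE effect of -2.01 ± 0.51 (adjusted p = 0.0127). Their differences were -5.43 ± 1.03, -4.99 ± 0.81 and -4.89 ± 0.82. With the gilt as a block KRT19 and STEAP4 were lost (adjusted p = 0.0195 and 0.015), and KRT19 also with all 31 libraries (adjusted p = 0.0168). KRT19 was called only without gilt C40 (highest adjusted p 0.0272, range -6.85 to -4.39). STEAP4 and ARHGEF38 were lost without gilt P39 or P43 (highest adjusted p 0.0148, range -5.56 to -3.86 for STEAP4, and 0.0132, range -5.37 to -4.38 for ARHGEF38).

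**Figure D5:**
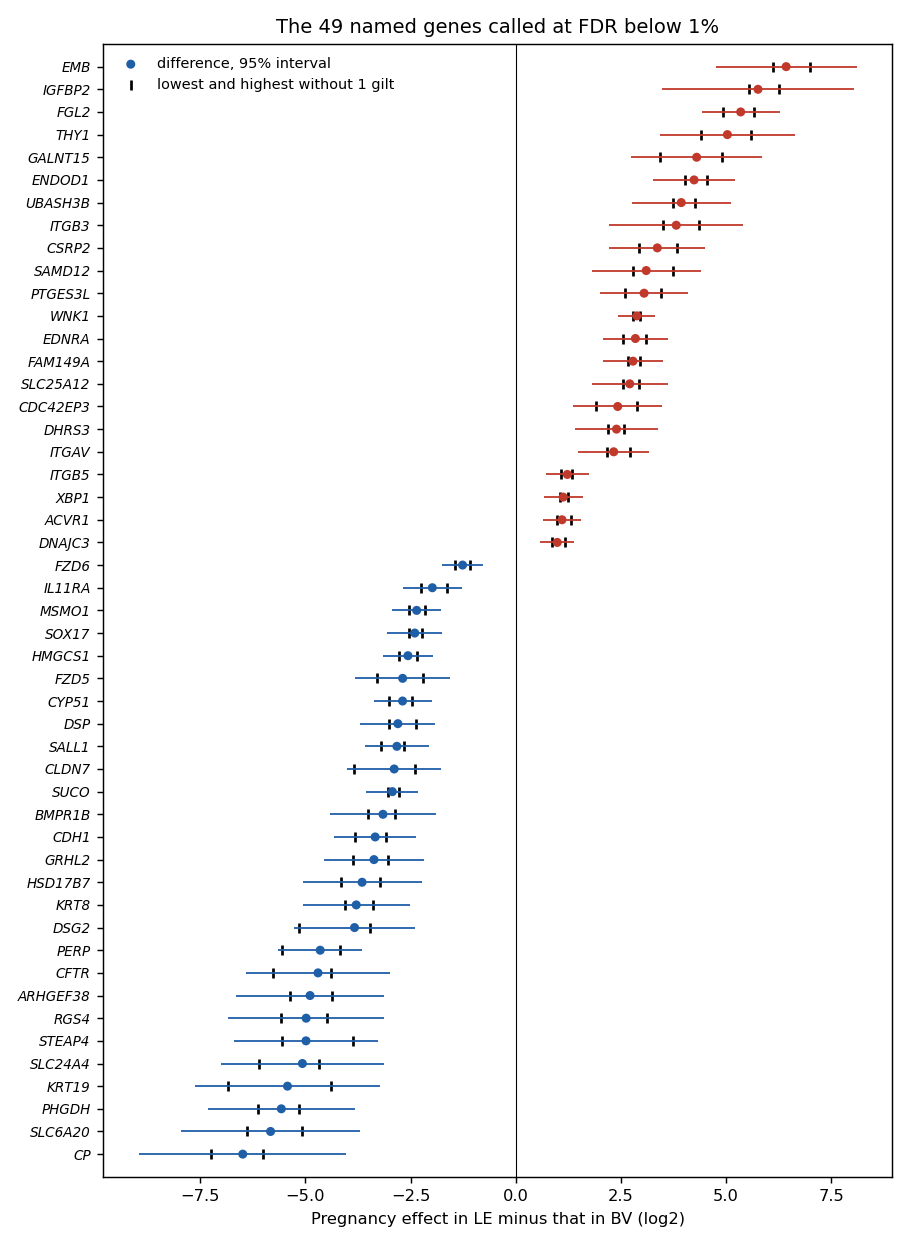
Pregnancy effect in LE minus that in BV (log2) of the 49 named genes called at FDR below 1%, with 95% intervals as lines and black ticks at the lowest and highest value when 1 gilt was left out. No interval reaches 0, and EMB at 6.43 and CP at -6.49 lie at the ends.

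Signalling genes contributed single calls, where 1.91% of all tested genes were called. Of 26 tested genes of TGF-beta and BMP signalling, ACVR1 had the LE effect above (1.10 ± 0.21, adjusted p = 0.00691) and BMPR1B below (-3.16 ± 0.60, adjusted p = 0.00553). ACVR1, a type I receptor of the family, rose in LE from between 53.0 and 73.7 CPM to between 133 and 157. BMPR1B, another type I receptor, rose in BV from between 1.72 and 2.68 CPM to between 12.8 and 32.2, while its LE levels overlapped. ACVR1 lost the call with the gilt as a block (adjusted p = 0.0255) and in all fits without 1 gilt but that without C42 (highest adjusted p 0.0335, range 0.99 to 1.31). BMPR1B was lost without gilt C40, C42, C78, P39, P41 or P43 (highest adjusted p 0.0261, range -3.50 to -2.87). Of 21 Wnt genes, the receptors FZD6 and FZD5 had the LE effect below (-1.26 ± 0.23 and -2.69 ± 0.53, adjusted p = 0.00452 and 0.00764). FZD6 fell in LE by 1.02 ± 0.16, and FZD5 rose in BV by 2.37 ± 0.40. Both were lost with the gilt as a block (adjusted p = 0.0253 and 0.0289) and with all 31 libraries (adjusted p = 0.0595 and 0.0431). FZD6 was called without gilt C78 or P41 (highest adjusted p 0.0248, range -1.45 to -1.09) and FZD5 without gilt C40 (highest adjusted p 0.0374, range -3.30 to -2.21). IL11RA, the receptor chain for interleukin 11, was the 1 call among 19 genes of interleukins and their receptors, at -1.98 ± 0.33 (adjusted p = 0.00271), and was lost with the block (adjusted p = 0.0179) and without gilt C78, P139, P39 or P41 (highest adjusted p 0.0132, range -2.24 to -1.65). SOX17, described above, was the 1 call among 19 endothelial markers (median difference 0.39). PECAM1 and VWF, markers of endothelium, had differences of 1.32 ± 0.53 and 0.62 ± 0.49 (adjusted p = 0.155 and 0.499).

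In 15 of the 30 lists no difference was called by edgeR's quasi-likelihood test. Of 36 tested interferon-stimulated genes, 0 were called, 4 had an unadjusted p below 0.05, as 21.6% of all tested genes did, and the median difference was -0.46. IFITM3, a membrane protein that restricts viruses, had the smallest p of that list (difference -2.39 ± 0.70, adjusted p = 0.0533). Of 17 genes of class I antigen presentation, 0 were called and 2 had an unadjusted p below 0.05, with a median of 0.03. SLA-2, a class I chain, rose in LE by 3.29 ± 0.50 (adjusted p = 0.000472) against 0.19 ± 0.46 in BV, and its difference of 3.09 ± 0.66 had an adjusted p of 0.0124. Reads of class I genes may be shared among close copies. Class II genes had a median of 0.56 (8 tested, 0 at an unadjusted p below 0.05), the prostaglandin pathway -0.60 (12 tested, 2), calcium transport -0.37 (5 tested, 2), basement membrane 0.23 (19 tested, 3), fibrillar and elastic matrix 0.53 (23 tested, 1), steroid receptors and enzymes -0.20 (13 tested, 3), cell cycle 0.41 (16 tested, 4), pericyte markers 1.10 (7 tested, 0) and leukocyte markers 0.22 (6 tested, 0). HPGD, which inactivates prostaglandins, had the smallest p of the prostaglandin list, with a difference of -3.02 (adjusted p = 0.0143, and 0.0017 with the gilt as a block). Alarmins and antimicrobial proteins (3 tested) and mucins (1 tested) also had 0 calls. NR1D2, a repressor of the clock, had a difference of 0.88 ± 0.20 (adjusted p = 0.0178). Over all lists 437 genes were tested and 32 called (7.32%, against 1.91% of all tested genes). The lists and their members were chosen with earlier results of these data known, so the higher share is not a test of them.

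Some genes moved in the same direction in both compartments. At FDR below 1% in LE and in BV, 17 genes were higher in both and 8 lower in both, and 21 of these 25 had an unadjusted p above 0.05 for the difference. Such a p does not show that the effects were equal. FMO5, a flavin-containing monooxygenase, rose in LE from between 23.2 and 46.6 CPM to between 225 and 565 and in BV from between 9.08 and 27.7 CPM to between 35.3 and 196, with a difference of 1.04 ± 0.62 (95% interval -0.27 to 2.36). NUPR1, a stress-induced regulator, rose in LE from between 3.93 and 11.4 CPM to between 38.6 and 50.6 and in BV from between 12.7 and 34.4 CPM to between 70.0 and 115, with a difference of 0.83 ± 0.44 (95% interval -0.11 to 1.76). MME, the peptidase neprilysin, rose by 1.80 in LE and 1.82 in BV, and RAB11FIP1, of recycling endosomes, by 1.77 and 1.64. FMO5, MME and RAB11FIP1, but not NUPR1, were among the genes at least 4-fold higher in cyclic LE or glandular epithelium than in cyclic BV. Whether their BV rises go with the higher epithelial marker sum in pregnant BV was not tested.

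The levels of LE and BV themselves drew together for most of the genes with the LE effect below. All 107 were higher in LE than in BV in cyclic gilts and 70 in pregnant gilts, and the median log2 gap went from 2.87 to 0.42. For 99 of the 107 the gap was smaller in pregnant gilts, as for 6119 of the 10413 tested genes. Of the 92 genes with the LE effect above, 29 were higher in LE in cyclic gilts and 77 in pregnant gilts, and the median gap went from -0.74 to 1.32. The order of LE and BV changed for 48 of these 92 and for 37 of the 107, against 2360 of the 10413 tested genes. These gaps use the same libraries as the difference, which is the pregnant gap minus the cyclic gap. Choosing genes by the difference thus favours such changes, and the gaps are given as a description.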

How the data were processed

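Laser-captured LE and BV of 4 cyclic and 4 pregnant gilts were analysed. The authors deposited raw read counts per NCBI gene, 1 column per library. According to their methods, reads were trimmed with Trim Galore, mapped to Sscrofa11.1 with Hisat2, cleared of PCR duplicates with NuGEN nudup and counted with QuasR, and genes under a CPM minimum were removed from a second, filtered set of tables. Tool versions are not given in the sources used here. Removal of duplicates after amplification from small RNA inputs limits how far low counts can be read as molecules.

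Counts of the 16 libraries were fitted in 1 model with a mean for each status and compartment (R 4.3.3, edgeR 4.0.16, limma 3.58.1), with TMM scaling, the quasi-likelihood F test and Benjamini-Hochberg adjustment over the 10413 genes in both filtered tables, and an FDR below 1% for a call. SE is the log2 difference divided by the square root of F. The script was tested on simulated counts. Named genes were the 8 largest differences in each direction with a mean of at least 5 CPM in a group, the opposite genes, 4 genes with the same direction in both compartments, and the leading genes of 30 gene lists. HPGD, PECAM1, VWF and some others that missed the threshold were named after their values were seen. The members and lists were chosen with earlier results of these data known. Each gilt gave both an LE and a BV library, so libraries are paired by animal. Deviations from the group means correlated within 8 of 8 gilts (median r = 0.18, range 0.07 to 0.34). Over the 24 pairs of other gilts with the same status the median was -0.05. Taking deviations from group means pushes that median below 0 when values within gilts are positive, so it is no independent baseline. Alternatives were RLE scaling, DESeq2 1.42.0, the robust likelihood ratio test, other filters, thinning, a gilt block, separate fits, all 31 libraries, and leaving out each gilt. Glandular epithelium and stroma were used only for levels, for 4-fold sets and in the fit of 31 libraries. Gene positions and upstream bases are from RefSeq (Sscrofa11.1). Results of a few genes are not reported here.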

Additional observations from a re-analysis of the deposited data

Results flagged for a closer look

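The pregnancy effect differed between LE and BV for 199 genes. Opposite effects that passed in both compartments were found for SALL1 (difference -2.83), PERP (-4.65), SUCO (-2.93) and SOX17 (-2.40), each by the test of the difference itself.

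Of 244 groups of 4 libraries examined, 13 (5.33%) held 1 library whose gap to its neighbour, as a share of the group's range, passed Dixon's 95% critical value for 4 values. Chance flags about 1 in 20 groups. Gilt C128 stood apart in 5 of the 13, each time as the highest cyclic LE library. The gap was 0.863 for IFITM3, 0.888 for ITGAV, 0.927 for KRT19, 0.844 for PHGDH and 0.959 for STEAP4. IFITM3 read 454 CPM in that library and 115 in the next, and KRT19 read 556 and 124. The same library had the lowest gland secretion sum of cyclic LE, at 101 CPM. Without gilt C128 the call was lost for KRT19 but not for ITGAV, PHGDH or STEAP4.

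In cyclic BV, gilt C78 was highest for MYLK (0.867) and PTGES3L (0.889), and it also had the highest smooth muscle sum, at 29046 CPM. Gilt C40 was highest in cyclic BV for PERP (0.879). In pregnant libraries, gilt P139 was highest in LE for ACVR1 (0.943) and lowest in BV for NR1D2 (0.863), gilt P41 was lowest in LE for CDH1 (0.849), gilt P39 was highest in LE for XBP1 (0.929) and gilt P43 was highest in BV for SLC24A4 (0.935).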

How the results depend on the processing

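The fit of 16 libraries has 12 residual degrees of freedom, and those with fewer libraries or more terms have fewer. Counts of called genes depended on single gilts and on the test. Counts below are given as LE effect above and below BV, LE higher and lower, BV higher and lower, and opposite calls with LE higher and with LE lower, against 92 and 107, 447 and 344, the BV counts of the text, and 0 and 4. DESeq2 gave 304 and 290, 849 and 610, 403 and 264, and 7 and 20. The robust likelihood ratio test gave 349 and 384, 859 and 652, 488 and 305, and 10 and 37. An FDR below 5% gave 299 and 365, 980 and 902, 507 and 378, and 10 and 27. Fits without 1 gilt ranged from 31 to 86 and from 35 to 96, from 227 to 562 and from 153 to 389, from 4 to 124 and from 0 to 83, and from 0 to 1 and from 0 to 4. BV calls were fewest without gilt C42 (4 higher, 0 lower), P39 (5 and 1) and P43 (15 and 1). Separate fits gave LE 186 and 114, BV 31 and 5, and 1 opposite gene with LE lower. Without epithelium-high genes 25 lay below, BV had 23 and 23, and 0 opposite genes with LE lower were left. All 31 libraries gave BV 211 and 101 and 1 opposite gene with LE higher, and no filter gave 27 lower in BV. RLE scaling moved the LE calls to 505 higher and 316 lower.

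With the gilt as a block, where animals pair the libraries, 71 genes lay above and 81 below, and 118 of these 152 were among the 199. It changed no other call of a named gene than those given above.

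Of 488 named-gene values without 1 gilt, 337 kept direction and side of the threshold, 142 lost the call, 1 gained it and 8 changed sign. Of 686 values under the other alternatives these were 622, 44, 13 and 7. All 49 called genes kept their sign in all 8 fits without 1 gilt. Besides the losses given with each gene, no filter lost ACVR1, FZD6 and ITGB5, thinning lost ACVR1, CDC42EP3, DNAJC3 and ITGB3, leaving out epithelium-high genes lost ACVR1, CDC42EP3, DHRS3, DNAJC3, ITGB3, ITGB5 and SAMD12, and RLE and both other filters lost CDC42EP3. Signs changed for 2 genes with differences near 0. MME (-0.02) became 0.012 with RLE, 0.0063 with DESeq2, 0.081 with the robust test, 0.014 with no filter, 0.0028 with edgeR's own filter and 0.022 without vessel-high genes, and it ranged from -0.35 to 0.33 without 1 gilt, with positive values without C42 (0.024), C78, P41 (0.099) and P43 (0.26). RAB11FIP1 (0.13) became -0.077 after thinning and ranged from -0.13 to 0.61 without 1 gilt, with negative values without C128, C42, P41 and P43. The causes were not tested.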
